A study of Mus musculus with 6 samples.

Results

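The cells described here are the 3254 hematopoietic progenitors that the deposited cell table assigns to the MPP-2 class and to cluster 0, 1 or 2. They make up 19.3% of the 16822 cells in the table and 67.2% of its 4839 MPP-2 class cells. A further 1176 MPP-2 class cells lie in cluster 3 and 409 in clusters 4 to 8. The class is the highest of 4 module scores, for HSC and for MPP-2, MPP-3 and MPP-4, in every cell of the table, so the rule rests on expression but not on treatment. In 1500 of the 3254 cells (46.1%) the MPP-2 score exceeded the next score by under 0.05. The next highest score was that of HSC in 1334 cells, of MPP-4 in 1014 and of MPP-3 in 906.

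Multipotent progenitors (MPPs) lie between the hematopoietic stem cell (HSC) and the committed progenitors of the blood lineages. MPP-2 is the subset known for its megakaryocyte and erythroid bias, MPP-3 for granulocyte and monocyte output, and MPP-4 for lymphoid priming. Gata1 and Klf1 encode transcription factors of the erythroid lineage, Gata1 and Gata2 also act in megakaryocytes, Itga2b encodes the CD41 integrin chain, Pf4 a platelet chemokine and Car2 a carbonic anhydrase.

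All recipients were CD45.1 C57BL/6J female mice aged 8 to 12 weeks, not conditioned before injection, and sacrificed at day 21. AML mice had received CD45.2 C1498 cells, a murine acute myeloid leukemia line, and PBS mice the vehicle alone. CD45.1+ bone marrow cells that were lineage negative, cKit+ and Sca1+ were sorted, so that host rather than leukemic cells were collected, and 1 droplet library was made per labelled sample. Of the 3 PBS and 3 AML libraries, AML replicate 2 has 0 cells in the table, which leaves 3 PBS against 2 AML libraries.

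PBS replicates 1, 2 and 3 contributed 1259, 149 and 931 cells, and AML replicates 1 and 3 contributed 261 and 654. Their summed unique molecular identifiers (UMIs) were 7647462, 2166994 and 6073224 in PBS, and 718994 and 5280317 in AML. Median UMIs per cell were 5902, 14589 and 6220 in PBS, and 2392 and 7507 in AML. AML replicate 1 stood apart, with a Pearson correlation across genes of 0.879 to 0.920 with the other 4 libraries, which correlated with each other at 0.958 to 0.981. It also had the lowest median UMIs per cell. No cell barcode was shared between libraries among these cells.

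Pf4 was higher in the MPP-2 class than in each other class in all 5 libraries. The genes behind the class scores are not known here, so Pf4 and the other markers may be among them, and their levels describe the class without testing its name. Pf4 measured 335, 286 and 387 CPM in PBS and 211 and 335 CPM in AML (CPM, counts per 1000000, here and for classes and clusters below taken on the plain sum of UMIs), against 50.8 to 87.9 CPM over the same libraries in HSC class cells of clusters 0 to 2. The range was 6.98 to 31.4 CPM in the MPP-3 class and 11.8 to 26.9 CPM in the MPP-4 class. The values did not overlap between MPP-2 and any other class. Gata1 was much lower in level, at 25.0, 15.7 and 9.39 CPM in PBS and 2.78 and 11.2 CPM in AML, against 0 to 5.75 CPM in HSC, 0 to 2.83 CPM in MPP-3 and 0 to 6.72 CPM in MPP-4 class cells. These ranges overlapped that of MPP-2 through AML replicate 1, in which Gata1 was higher in MPP-4 than in MPP-2. Klf1 did not exceed 4.32 CPM in any library and was at 0 UMIs in AML replicate 1.

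Of the other markers, Car2 and Gata2 were higher in the HSC class. Car2 was lower than in the HSC class in every library, at 291 to 837 CPM against 525 to 1166 CPM. Gata2 followed the same order, with 19.5 to 31.1 CPM against 36.5 to 54.9 CPM and no overlap. Itga2b overlapped between both classes, at 2.78 to 25.9 CPM in MPP-2 and 10.4 to 33.9 CPM in HSC. The HSC value of Itga2b in AML replicate 1 comes from 22 cells. In each of the other 4 libraries Itga2b was higher in MPP-2 (16.6 to 25.9 CPM over these libraries) than in HSC (10.4 to 18.3 CPM). By mean level, 3 of the 6 markers were highest in the MPP-2 class and 3 in the HSC class, and 4 and 2 without AML replicate 1. The HSC markers had 15 of 15 genes highest in the HSC class, among them Procr, the endothelial protein C receptor, at 0 to 15.7 CPM in MPP-2 against 16.9 to 74.8 CPM in HSC. Of 29 megakaryocyte and platelet genes, 8 were highest in the MPP-2 class and 19 in the HSC class (11 and 13 without AML replicate 1), and of 29 erythroid genes 10 and 12 (10 and 13). These orders describe classes that were themselves made from expression and carry no test. The HSC class of AML replicate 1 holds 22 cells and the MPP-3 class of PBS replicate 2 holds 15, so that their levels are imprecise.

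**Figure D1:**
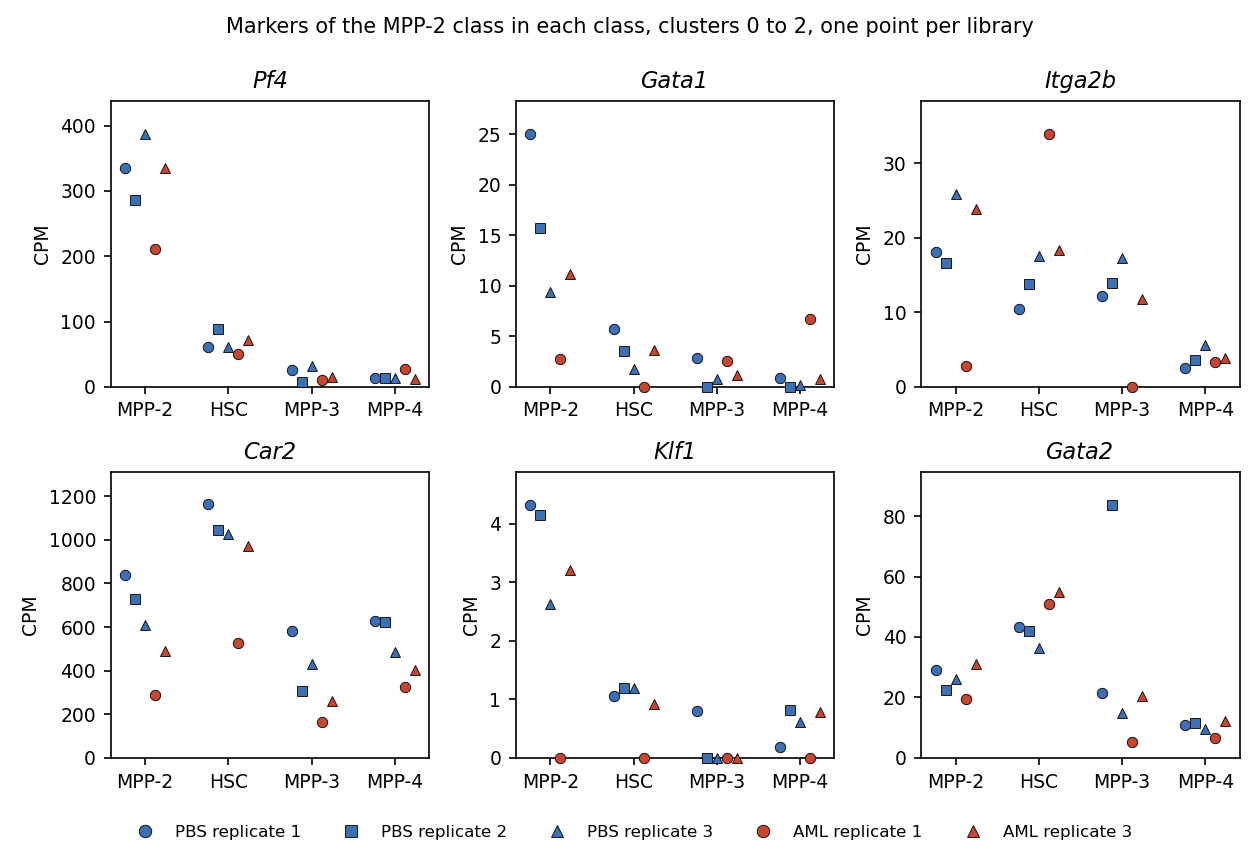
CPM (linear axes from 0) of the 6 MPP-2 markers in the MPP-2, HSC, MPP-3 and MPP-4 classes of clusters 0 to 2; each point is the summed cells of 1 library, blue for PBS and red for AML. Pf4 lies at 211 to 387 CPM in the MPP-2 class, above every point of the other classes, whereas Car2 and Gata2 are higher in the HSC class than in the MPP-2 class of the same library.

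Shares of cells with a UMI gave a similar picture of Pf4 and Gata1. Pf4 was found in 788 of 3254 cells (24.2%), against 505 of 3007 HSC class cells (16.8%) and 308 of 6121 MPP-4 class cells (5.03%), where it serves as the background level. With each cell thinned to 2000 UMIs and shallower cells left out, these shares were 14.0%, 9.74% and 2.77%. Gata1 was found in 243 cells (7.47%; 2.81% after thinning), against 18 MPP-4 class cells (0.294%; 0.149% after thinning). Median UMIs per cell ran from 2392 to 14589 over the libraries in the MPP-2 class and from 2516 to 8917 in the MPP-4 class.

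Apart from Pf4, the genes that led the MPP-2 class were genes of mitosis. By the smallest log2 ratio over the other 3 classes in any library, the 10 leading genes were Pf4 (1.69), Kif4 (1.44), Nuf2 (1.15), Ska1 (1.02), Ckap2l (0.99), Knstrn (0.96), Tpx2 (0.96), Cep55 (0.92), Hmmr (0.90) and Spc24 (0.87). Kif4 encodes a chromokinesin, Nuf2 and Spc24 are subunits of the Ndc80 kinetochore complex, and Tpx2 and Hmmr act at the mitotic spindle. Kif4 measured 51.4, 30.5 and 40.0 CPM in PBS and 93.2 and 45.5 CPM in AML, against 1.48 to 16.9 CPM in the HSC class. All 34 G2M phase genes of a standard cell cycle list had their highest mean level in the MPP-2 class, and so did 18 of 35 S phase genes.

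The deposited phase calls showed the same pattern. Of the 3254 cells, 15.5% were called G1, 34.2% S and 50.3% G2M, while 86.0% of HSC, 50.0% of MPP-3 and 73.0% of MPP-4 class cells were called G1. The share called S or G2M was 84.4%, 89.9% and 82.8% in PBS replicates 1, 2 and 3, with exact 95% Clopper-Pearson intervals of 82.2 to 86.3%, 83.9 to 94.3% and 80.2 to 85.2%. In AML replicates 1 and 3 it was 93.9% (90.2 to 96.5%) and 82.3% (79.1 to 85.1%). The intervals cover counting error only. In cells called S or G2M alone, Pf4 again led the MPP-2 class, with a smallest log2 ratio of 1.83, followed by Hmmr (0.63), Tpx2 (0.62) and Cep55 (0.57).

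**Figure D2:**
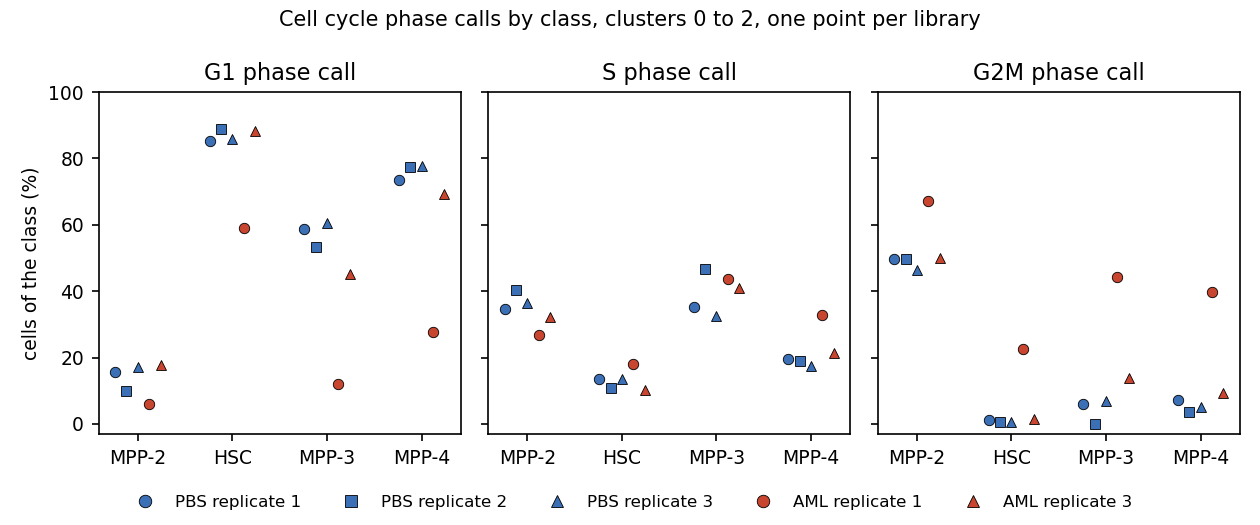
Percent of cells called G1, S and G2M (3 panels) in the MPP-2, HSC, MPP-3 and MPP-4 classes of clusters 0 to 2, with 1 point per library, blue for PBS and red for AML. In the MPP-2 class 46.5 to 67.0% of cells were called G2M, and AML replicate 1 has the highest G2M share and the lowest G1 share in each of the 4 classes.

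The mean share of cycling cells was 85.7% ± 3.75 (SD, n = 3) in PBS and 88.1% ± 8.21 (SD, n = 2) in AML. The difference of 2.37 percentage points lay within the spread between libraries (exact two-sided permutation p = 0.7, where the smallest possible is 0.1) and was -3.44 without AML replicate 1. By phase, S calls were 34.6%, 40.3% and 36.3% in PBS against 26.8% and 32.3% in AML, and G2M calls 49.8%, 49.7% and 46.5% against 67.0% and 50.0%. The 2 groups did not overlap for either phase, with an exact permutation p of 0.1 each (0.4 after Benjamini-Hochberg adjustment over 8 such quantities). The difference of the means was -7.50 percentage points for S and 9.87 for G2M, and -4.78 and 1.34 without AML replicate 1. For G2M calls the gap was narrow, from 49.8% in PBS replicate 1 to 50.0% in AML replicate 3. Median G2M scores overlapped, at 0.210, 0.235 and 0.0852 in PBS against 0.167 and 0.149 in AML. Summed G2M phase genes went the other way, at 6277, 7731 and 6052 TMM-normalized CPM in PBS against 5385 and 5513 in AML. AML replicate 1 had both the lowest median UMIs and the highest G2M share. The part of depth in these shares was not tested.

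The cells made up 18.4%, 16.0% and 21.2% of all kept cells in the PBS libraries, and 37.7% and 16.5% in AML replicates 1 and 3. The difference of the means was 8.58 percentage points (exact two-sided permutation p = 0.4), and it turned to -1.99 without AML replicate 1. AML replicate 3 thus lay among the PBS libraries, and AML replicate 1 alone lay above them.

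Within the MPP-2 class, megakaryocyte genes led cluster 0 and lymphoid genes led cluster 2, while cluster 1 had no such wide margin. Cluster 0 held 1954 of the cells (60.0%), cluster 1 held 925 (28.4%) and cluster 2 held 375 (11.5%). The share in cluster 0 was 66.5%, 62.4% and 56.0% in PBS and 49.4% and 57.2% in AML (exact permutation p = 0.3), and that in cluster 2 was 10.2%, 8.05% and 11.7% against 13.8% and 13.6% (exact permutation p = 0.2). The median depth was similar, at 5796 UMIs per cell in cluster 0, 6650 in cluster 1 and 7187 in cluster 2. As the clusters were made from the same counts, their differences in expression are given without a test.

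Cluster 0 carried the megakaryocyte genes. Pf4 measured 394 to 724 CPM in cluster 0, 24.0 to 50.4 CPM in cluster 1 and 0 to 25.6 CPM in cluster 2. Gata1 measured 38.3, 25.6 and 17.6 CPM in PBS and 5.39 and 22.8 CPM in AML in cluster 0 and at most 2.60 CPM in any library of the other 2. Both were followed by Plxdc2 and by Tbxas1, which encodes thromboxane synthase. Plxdc2 measured 29.7 to 49.0 CPM in cluster 0 but 76.6 to 130 CPM in the HSC class. Tbxas1 measured 40.5 to 63.2 CPM in cluster 0 but 128 to 237 CPM in the HSC class. Summed HSC markers were also highest in cluster 0, at 1330 to 1643 CPM. They reached 771 to 1257 CPM in cluster 1 and 412 to 609 CPM in cluster 2.

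Cluster 1 was led by Prtn3, which encodes the granule protease proteinase 3. Prtn3 measured 1099, 742 and 1324 CPM in PBS and 1139 and 1302 CPM in AML in cluster 1, against 467 to 855 CPM in cluster 0 and 466 to 592 CPM in cluster 2. The margins were small in this cluster, with a smallest log2 ratio of 0.41 for Prtn3, 0.31 for Higd1a, 0.28 for Dctpp1, 0.28 for Nop10 and 0.26 for Alkbh7. Mpo, the myeloperoxidase gene, measured 75.7 to 256 CPM in cluster 1 and 42.8 to 154 CPM in cluster 0 and 51.0 to 137 CPM in cluster 2. These ranges overlapped, and in PBS replicate 2 Mpo was higher in cluster 2 than in cluster 1.

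Cluster 2 carried lymphoid genes at far wider margins. Il7r, the interleukin 7 receptor chain, measured 36.6 to 85.5 CPM in cluster 2 and at most 2.40 CPM in clusters 0 and 1. Dntt, the terminal transferase of lymphoid progenitors, measured 730.1, 1166 and 587 CPM in PBS and 306 and 526 CPM in AML in cluster 2, against 18.9 to 41.6 CPM in cluster 0. Ebf1, a B lineage transcription factor, was at 22.2 to 91.9 CPM in cluster 2 and at most 0.959 CPM elsewhere. Pf4 was at 0 UMIs in cluster 2 of PBS replicate 2 and of AML replicate 1, which hold 12 and 36 cells. The 375 cells of cluster 2 thus bear the class name with little or no Pf4. Of these cells 69.1% were called G2M, against 49.1% in cluster 0 and 45.1% in cluster 1.

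**Figure D3:**
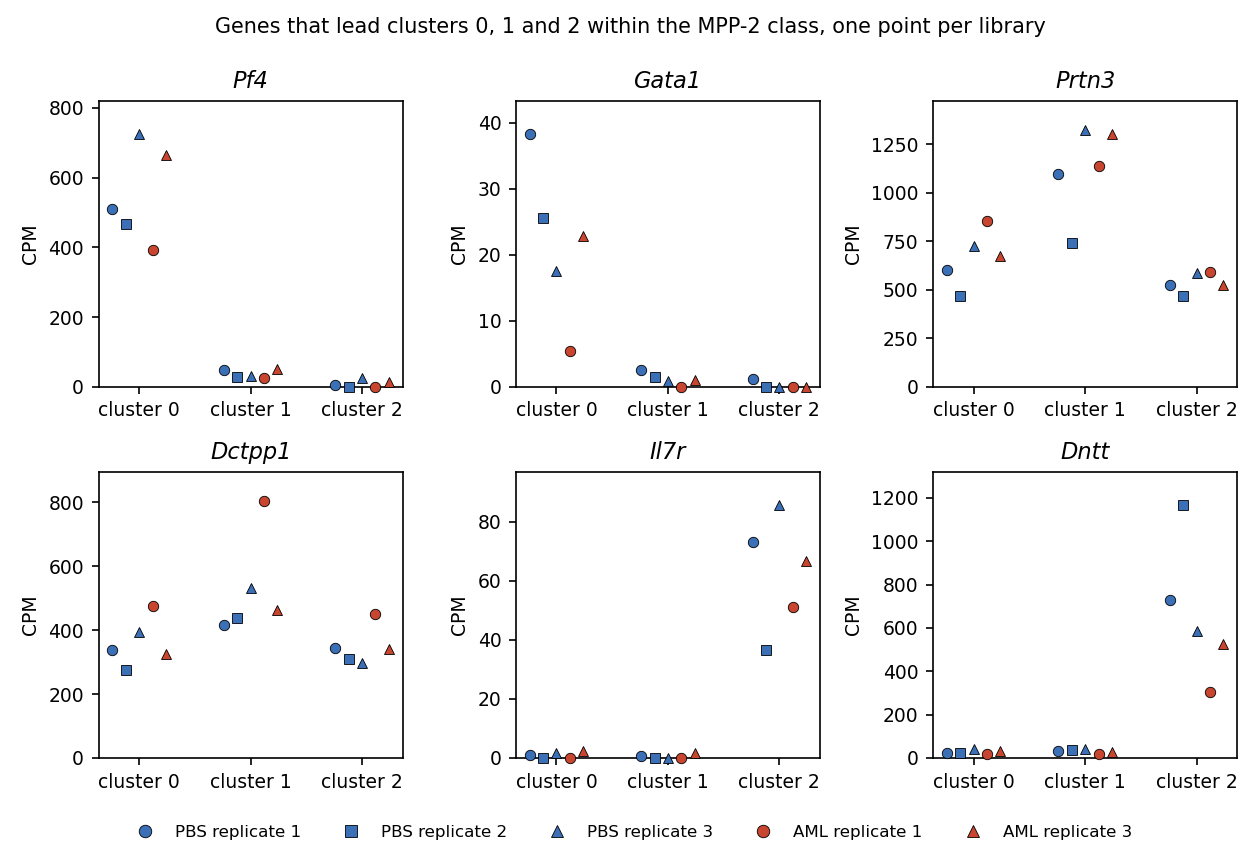
CPM (linear axes from 0) of Pf4, Gata1, Prtn3, Dctpp1, Il7r and Dntt in clusters 0, 1 and 2 of the MPP-2 class; each point is 1 library, blue for PBS and red for AML. Pf4 and Gata1 are highest in cluster 0, Prtn3 in cluster 1 by a small margin, and Il7r (36.6 to 85.5 CPM) and Dntt (306 to 1166 CPM) in cluster 2.

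To ask how these progenitors differed in leukemic marrow, their UMIs were summed per library and AML was compared with PBS. Ly86 and Irf8 rose, and no gene was called lower. At an edgeR adjusted p under 0.05, 2 of 11604 genes were called (0.0172%), with 868 at an unadjusted p under 0.05 (7.48%), 533 of them higher and 335 lower. For 3361 genes (29.0%) the AML and PBS values did not overlap. Simulated 4-fold changes at these depths were recovered in 93% of cases and 2-fold changes in 34%, so that smaller changes would often be missed. DESeq2 called 6 genes, limma-voom 2, and edgeR 265 without AML replicate 3, 4 without AML replicate 1 and 1 each when PBS replicate 2 or 3 was omitted. Where an AML library is left out, the remaining one is assumed to vary like the PBS libraries.

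Ly86 (ENSMUSG00000021423) encodes MD-1, a secreted glycoprotein that binds the Toll-like receptor homolog CD180. It measured 12.7, 10.0 and 21.8 CPM for PBS against 127 and 77.6 CPM for AML (TMM-normalized CPM, here and for AML against PBS below). Both AML libraries lay well above every PBS library, and AML replicate 1 was the higher one. The PBS mean was 14.9 CPM with an SD of 6.18 (n = 3), and the AML mean 102 CPM with an SD of 35.2 (n = 2). The log2 fold change was 2.69 ± 0.314 (standard error) with an adjusted p of 0.00240 by edgeR. Without AML replicate 1 the log2 fold change was 2.33, and Ly86 was called in 19 of 20 alternative analyses. In G1 cells, neither Ly86 nor Irf8 passed the filter on low counts.

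Irf8 (ENSMUSG00000041515), a transcription factor required for monocyte and dendritic cell development, measured 11.4, 6.68 and 18.9 CPM for PBS against 92.3 and 46.0 CPM for AML. The groups did not overlap, and AML replicate 1 was again the higher AML library. The PBS mean was 12.3 CPM with an SD of 6.14 (n = 3), and the AML mean 69.2 CPM with an SD of 32.7 (n = 2). The log2 fold change was 2.31 ± 0.355 (standard error) with an adjusted p of 0.0391 by edgeR. It was positive in all 20 alternatives, with 1.82 without AML replicate 1, but called in only 11 of them. Leaving out a PBS library was enough to lose the call, with edgeR adjusted p of 0.132, 0.159 and 0.0549 when replicate 1, 2 or 3 was omitted.

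The bases before the annotated starts of both genes are shown because these 2 genes passed the threshold between AML and PBS. They are RefSeq sequences of build GRCm38.p6, 250 bases before the start, on the plus strand. For Irf8 the upstream of 2 annotated starts is given (chr8:120736108-120736357), and for Ly86 its single annotated start (chr13:37345095-37345344). Capitals mark matches to the gamma-activated site TTCNNNGAA, the motif of STAT dimers.
Irf8: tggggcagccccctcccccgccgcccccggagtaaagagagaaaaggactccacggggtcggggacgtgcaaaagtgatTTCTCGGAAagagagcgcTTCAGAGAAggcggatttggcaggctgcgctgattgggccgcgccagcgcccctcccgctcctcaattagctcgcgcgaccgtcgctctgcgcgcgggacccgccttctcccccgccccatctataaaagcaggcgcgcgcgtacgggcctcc
Ly86: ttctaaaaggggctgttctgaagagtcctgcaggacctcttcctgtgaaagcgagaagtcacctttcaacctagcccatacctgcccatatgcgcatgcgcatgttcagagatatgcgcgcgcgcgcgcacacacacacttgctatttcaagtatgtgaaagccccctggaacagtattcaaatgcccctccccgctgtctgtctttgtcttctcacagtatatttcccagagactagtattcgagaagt
Irf8 held 2 matches, TTCTCGGAA and TTCAGAGAA, which began 171 and 153 bases before the start. The second annotated Irf8 start (chr8:120738389-120738638) and Ly86 held none in this window, and 2306 of 32851 such windows in the genome (7.02%) hold at least 1. The motif reads the same on both strands. The core of the interferon-stimulated response element (GAAA, any 2 bases and GAAA; in 2.98% of windows) and the ETS-IRF composite element (GGAA, any 2 bases and GAAA; 2.30%), which can share bases and were searched on both strands, had no match in the windows of Irf8 and Ly86. A match describes letters and not a bound site.

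More cells carried a UMI of each gene in AML. Ly86 was found in 3.49%, 3.36% and 6.02% of the cells in PBS and in 19.5% and 15.4% in AML. With cells thinned to 2000 UMIs, the shares were 1.52% and 1.83% in PBS replicates 1 and 3, and 17.2% and 7.65% in AML replicates 1 and 3. In PBS replicate 2 it was 0 of 149 cells, which allows up to 2.01%. In HSC class cells, where Ly86 is low, 0.809% of PBS cells and 2.43% of AML cells held a UMI (0.542% and 1.12% after thinning), at median UMIs of 2317 to 7284 per cell over the libraries. In AML, 29.1% of MPP-3 and 18.5% of MPP-4 class cells held a UMI of Ly86. Irf8 was found in 5.72%, 6.04% and 8.49% of the cells in PBS and in 18.0% and 17.6% in AML. After thinning these shares were 2.08%, 1.34% and 3.99% in PBS and 14.2% and 5.81% in AML. Of the HSC class cells, 37 of 2471 in PBS and 15 of 536 in AML held an Irf8 UMI (12 of 2400 and 5 of 536 after thinning).

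Ly86 was higher in AML in each cluster, from very different starting levels. In cluster 0 it measured 0.621, 0.777 and 1.60 CPM in PBS and 48.6 and 7.60 CPM in AML. Ly86 there rested on few UMIs, with 3, 1 and 5 in PBS and 18 and 19 in AML. In cluster 1 it measured 8.84, 1.51 and 8.46 CPM in PBS and 168 and 63.9 CPM in AML, and in cluster 2 94.3, 86.9 and 125 CPM in PBS and 316 and 328 CPM in AML. The AML libraries lay above all PBS libraries in every cluster. By edgeR within each cluster, the log2 fold change was 4.18 ± 0.747 (SE, adjusted p 0.0179) in cluster 0, 3.79 ± 0.428 (SE, adjusted p 8.27e-07) in cluster 1 and 1.52 ± 0.364 (SE, adjusted p 0.714) in cluster 2. Only the last did not pass, and whether the change differed between clusters was not tested.

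Irf8 showed the same order of levels, with 2.90, 3.11 and 7.04 CPM in PBS and 48.6 and 12.4 CPM in AML in cluster 0. In cluster 1 it measured 11.4, 3.03 and 17.4 CPM in PBS and 132 and 43.1 CPM in AML, and in cluster 2 64.0, 36.6 and 59.8 CPM in PBS and 153 and 160.1 CPM in AML. The log2 fold change passed in cluster 1, at 2.57 ± 0.438 (SE, adjusted p 0.00166). It was 2.24 ± 0.527 (SE, adjusted p 0.164) in cluster 0 and 1.32 ± 0.341 (SE, adjusted p 0.745) in cluster 2.

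In edgeR fits of single clusters, added after the results over all 3 were seen, cluster 0 had 5 called genes, all higher, of 10498 tested (0.0476%), namely Ctsg, Ifi213, Ly86, Isg15 and Ccl5. Ctsg, the neutrophil protease cathepsin G, measured 13.4, 9.32 and 13.4 CPM in PBS and 91.7 and 38.0 CPM in AML and rose by 2.09 ± 0.341 (SE, adjusted p 0.0126) on the log2 scale. Isg15, the interferon-induced ubiquitin-like protein, rose by 1.27 ± 0.242 (SE, adjusted p 0.0352) and measured 80.1, 83.9 and 87.6 CPM in PBS and 205 and 218 CPM in AML. Ccl5, a chemokine, was called at 2.35 ± 0.462 (SE, adjusted p 0.0439). Over the 3 clusters together Ccl5 measured 27.2, 2.86 and 6.11 CPM for PBS against 19.6 and 62.5 CPM for AML (TMM-normalized CPM), and the groups overlapped, with PBS replicate 1 above AML replicate 1. Cluster 1 had 13 called genes of 9405 (0.138%), all higher. They included Elane, the neutrophil elastase gene, with 3.12, 1.51 and 7.52 CPM in PBS and 128 and 29.1 CPM in AML and a log2 fold change of 3.63 ± 0.521 (SE, adjusted p 9.00e-05). Csf1r, the receptor of macrophage colony-stimulating factor, was called at 4.76 ± 1.02 (SE, adjusted p 0.0308) and Slpi, a secreted protease inhibitor, at 2.07 ± 0.436 (SE, adjusted p 0.0292). Cluster 2 had 0 called genes of 7108, and 199 at an unadjusted p under 0.05.

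**Figure D4:**
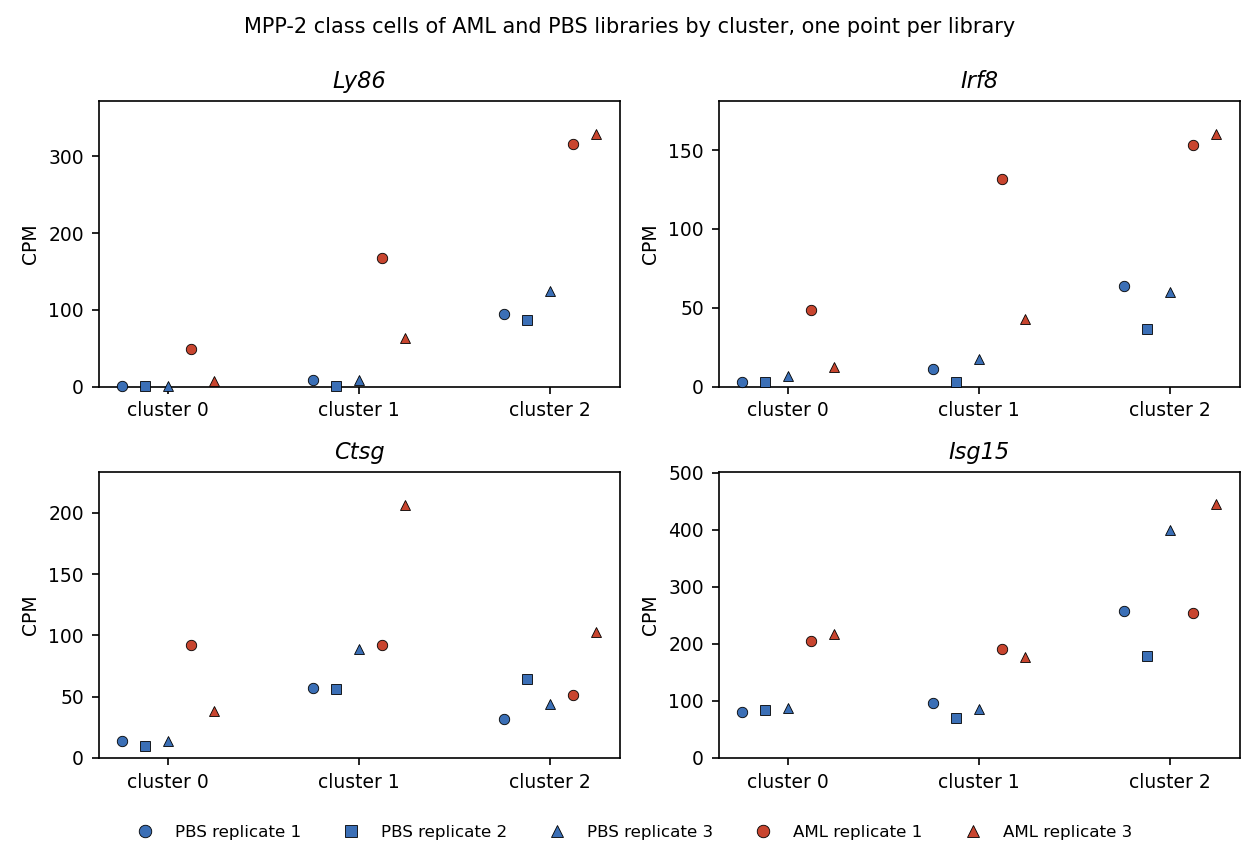
CPM (linear axes from 0) of Ly86, Irf8, Ctsg and Isg15 in clusters 0, 1 and 2 of the MPP-2 class; each point is 1 library, blue for PBS and red for AML. For Ly86 and Irf8 both AML points lie above all 3 PBS points in each cluster, while for Isg15 they do so in clusters 0 and 1 but not in cluster 2, where PBS replicate 3 measured 400.4 CPM and AML replicate 1 255 CPM.

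Over the 3 clusters together, the 12 genes with the lowest p that missed the threshold, and whose groups did not overlap, all had higher values in AML. Elane, on the granulocyte and monocyte list like Ctsg, Ms4a6c, Atp8b4 and Ctss, measured 1.35, 1.43 and 5.24 CPM for PBS against 49.0 and 13.9 CPM for AML (log2 fold change 3.18 ± 0.559, edgeR adjusted p 0.0937). Ctsg measured 24.7, 30.1 and 46.6 CPM for PBS against 86.7 and 106 CPM for AML (log2 fold change 1.53 ± 0.279, edgeR adjusted p 0.0947). For both genes each AML library exceeded every PBS library. Ms4a6c, a membrane protein gene with close paralogs that may take some of its reads, measured 38.9, 40.1 and 52.5 CPM for PBS against 129 and 93.3 CPM for AML (log2 fold change 1.31 ± 0.254, edgeR adjusted p 0.140). Tifab, a gene related to the TRAF6 adaptor TIFA, rested on few UMIs, with 15, 0 and 4 in PBS and 6 and 62 in AML (log2 fold change 3.20 ± 0.544, edgeR adjusted p 0.0851). Ifi213, an interferon-activated gene of a family of close paralogs, measured 1.59, 2.39 and 3.67 CPM for PBS against 16.8 and 11.2 CPM for AML (log2 fold change 2.34 ± 0.423, edgeR adjusted p 0.0947). The others were Atp8b4, a phospholipid flippase (1.40), Serpina3f (2.80), 4930469K13Rik (2.63), Parp8 (2.03), Rab44 (1.35), Ctss, the lysosomal protease cathepsin S (1.17), and Drc7 (1.37). Parp8 was far higher in AML replicate 1, at 555 CPM against 129 CPM in AML replicate 3 and at most 111 CPM in PBS.

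The list of granulocyte and monocyte priming genes had 2 of its 30 tested members called, Ly86 and Irf8, and 23 with a positive log2 fold change. Its median was 0.65, against 0.00 over all genes tested, of which 50.1% were positive. A further 13 members were higher at an unadjusted p under 0.05 (15 with the called genes, against 4.59% of all genes) and 2 were lower (against 2.89%). The former included Mpo, which measured 51.4, 69.2 and 83.1 CPM for PBS against 176 and 111 CPM for AML (log2 fold change 1.05 ± 0.280, edgeR adjusted p 0.377). Tyrobp, a signalling adaptor of myeloid cells, measured 83.1, 59.2 and 124 CPM for PBS against 217 and 179 CPM for AML (log2 fold change 1.13 ± 0.292, edgeR adjusted p 0.377). Lyz2, the lysozyme gene of mature myeloid cells, went the other way, with 83.0, 133 and 71.2 CPM for PBS against 39.2 and 45.7 CPM for AML (log2 fold change -1.13 ± 0.302, edgeR adjusted p 0.377). The AML libraries lay above the PBS libraries for 17 of the 30 genes and below for 2, against 15.2% and 13.8% of all genes. This list and those below were chosen with earlier results of these data known. Their counts are therefore not independent evidence.

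The genes that the study followed were low or did not pass, apart from Irf8. Isg15 measured 98.5, 92.1 and 137 CPM for PBS against 208 and 232 CPM for AML (log2 fold change 1.01 ± 0.257, edgeR adjusted p 0.377). Irf7, the interferon regulatory factor of type I interferon induction, measured 50.9, 47.7 and 38.1 CPM for PBS against 64.3 and 103 CPM for AML (log2 fold change 0.92 ± 0.259, edgeR adjusted p 0.456). In both genes each AML library exceeded all PBS libraries. Nfkb1 (0.15) and Nfkb2 (0.85), subunits of NF-kB, had adjusted p of 0.874 and 0.690 with edgeR. Cxcl10, an interferon-induced chemokine, measured 1.22, 0.955 and 13.6 CPM for PBS against 1.40 and 11.9 CPM for AML, so that the groups overlapped. Its AML effect differed between the 4 classes (edgeR adjusted p 0.0106), and that in MPP-2 minus that in MPP-3 was -2.83 ± 0.696 (SE, edgeR adjusted p 0.0365) on the log2 scale. It was -1.95 ± 0.510 (SE, edgeR adjusted p 0.221) against HSC and -1.87 ± 0.499 (SE, edgeR adjusted p 0.0787) against MPP-4, which did not pass. Fitted on their own, the HSC class had a Cxcl10 log2 fold change of 2.96 (edgeR adjusted p 2.32e-09) and the MPP-4 class 3.07 (edgeR adjusted p 0.00244), and in the MPP-3 class it was not tested on its own. No gene passed the class comparison with limma-voom and the library as a random effect. In MPP-2, Cxcl10 at 1.40 CPM in AML replicate 1 (718994 UMIs) and 0.955 CPM in PBS replicate 2 (2166994 UMIs) rests on very few UMIs. The MPP-2 side of these differences is therefore imprecise. Cxcl9 did not pass the filter on low counts and reached at most 0.955 CPM. As the study chose these genes on the same samples, their direction is not independent evidence.

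Interferon-stimulated genes had no member called among 38 tested. Of these 34 were positive, with a median of 0.40, 12 were higher at an unadjusted p under 0.05 (against 4.59% of all genes) and 18 had AML libraries above all PBS libraries (against 15.2%). Ifi27l2a measured 40.9, 105 and 80.1 CPM for PBS against 173 and 174 CPM for AML (log2 fold change 1.23 ± 0.318, edgeR adjusted p 0.377). Among 29 interferon gamma and antigen presentation genes, Irf8 was the only one called, the median was 0.15 and B2m, the beta chain of MHC class I, had a log2 fold change of -0.24. The 18 tested NF-kB genes had a median of 0.21 and none called. Lymphoid priming genes had a median of 0.24 over 13 tested, none called. Satb1, a chromatin organizer, measured 44.8, 34.4 and 51.8 CPM for PBS against 104 and 70.0 CPM for AML (log2 fold change 0.93 ± 0.265, edgeR adjusted p 0.463).

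Genes of the erythroid and stem cell programs leaned lower, those of the megakaryocyte program less so, and none was called. Of 21 erythroid genes 16 were negative, with a median of -0.46, and of 24 megakaryocyte and platelet genes 15, with a median of -0.24. AML libraries lay below all PBS libraries for 7 erythroid genes and above for 3. For the megakaryocyte and platelet genes these counts were 4 and 2, the former near the 13.8% of all genes below. Car2 measured 784, 752 and 647 CPM for PBS against 292 and 474 CPM for AML (log2 fold change -0.91 ± 0.296, edgeR adjusted p 0.546), and both AML libraries lay below all PBS libraries. Pf4 measured 313, 296 and 410.2 CPM for PBS against 213 and 325 CPM for AML (log2 fold change -0.33 ± 0.283, edgeR adjusted p 0.763), with overlapping groups. Gata1 measured 23.4, 16.2 and 9.95 CPM for PBS against 2.80 and 10.8 CPM for AML (log2 fold change -0.89 ± 0.411, edgeR adjusted p 0.664), and AML replicate 3 lay within the PBS range. All 15 HSC markers had a negative log2 fold change, with a median of -0.35 and 8 of them with AML libraries below all PBS libraries (against 13.8% of all genes), among them Pdzk1ip1, at 90.1, 83.5 and 83.8 CPM for PBS against 16.8 and 59.0 CPM for AML. Of the class marker lists, that of MPP-2 had a median of -0.42 over 6 genes, that of MPP-3 of 0.53 over 10 and that of MPP-4 of 0.31 over 10, none called. The 18 immediate early genes had a median of -0.43, with 16 negative.

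**Figure D5:**
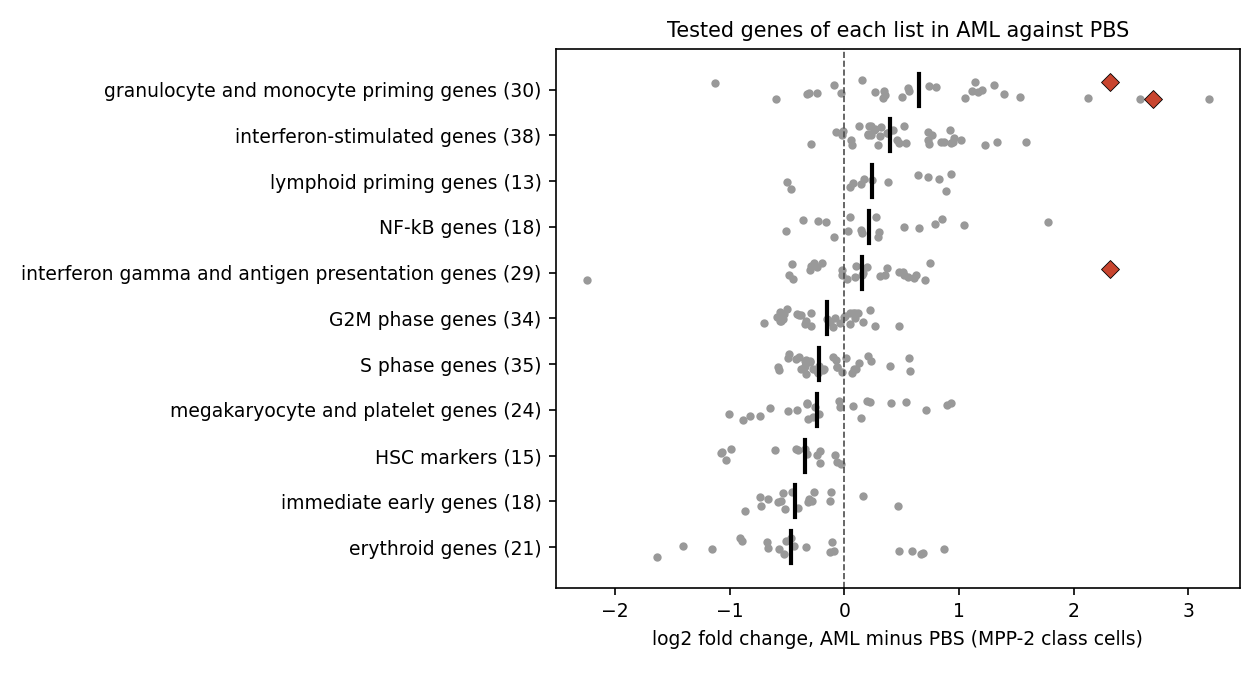
Log2 fold change of AML against PBS in MPP-2 class cells (x axis) for the tested genes of 11 lists (rows, number of tested genes in parentheses); grey points are genes not called, red diamonds are called genes, black bars are list medians and vertical positions within a row are spread for legibility. The medians run from -0.46 for erythroid genes to 0.65 for granulocyte and monocyte priming genes, and the called genes are Ly86 and Irf8, the latter in 2 lists. The lists were chosen with earlier results of these data known.

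Cell cycle lists also leaned lower, with none called. S phase genes had a median of -0.22, with 25 of 35 negative and 10 with AML libraries below all PBS libraries. G2M phase genes had a median of -0.15, with 23 of 34 negative and 11 below, against 13.8% of all genes below. Ccnd1, the cyclin D1 gene, measured 7.22, 6.68 and 6.28 CPM for PBS against 14.0 and 16.3 CPM for AML (log2 fold change 1.21 ± 0.292, edgeR adjusted p 0.370), and Cdk6 measured 414, 328 and 375 CPM for PBS against 653 and 518 CPM for AML (log2 fold change 0.65 ± 0.265, edgeR adjusted p 0.645). Mitochondrially encoded genes had a median of -0.42 over 13 genes and cytosolic ribosomal protein genes of -0.16 over 83. The remaining lists had medians of 0.17 (MYC target and ribosome biogenesis genes, and G1 cyclins, CDKs and inhibitors), 0.15 (cytokine and inflammatory receptors), 0.07 (heat shock genes) and 0.03 (nuclear respiratory chain genes), with none called.

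Markers of other cells were mostly low. T cell genes Cd3e, Cd3g, Trac and Cd8a were at 0 UMIs in all 5 libraries, and the summed level of mature neutrophil genes was 2.97 to 3.82 CPM in PBS and 2.93 and 6.99 CPM in AML, with Mmp9, Cd177 and Chil3 at 0. The T and NK list summed to 205 to 229 CPM over both groups, almost all of it from Nkg7. Mast cell and basophil genes summed to 15.6 to 20.5 CPM in PBS and 15.4 and 14.3 CPM in AML. Monocyte and macrophage genes summed to 107 to 159 CPM in PBS and 64.3 and 82.5 CPM in AML. Mature erythroid genes summed to 39.7 to 68.7 CPM in PBS and 21.0 and 52.3 CPM in AML, and Hbb-bs measured 9.43, 7.64 and 15.4 CPM for PBS against 1.40 and 4.03 CPM for AML. B and plasma cell genes summed to 185 to 289 CPM in PBS and 154 and 241 CPM in AML. Barcodes outside the cell table, which can hold free RNA and cells not kept, carried Ly86 at 14.5, 8.05 and 22.3 CPM in PBS and 107 and 67.9 CPM in AML replicates 1 and 3. The part of free RNA in the Ly86 and Irf8 differences was not tested. HSC class cells carried Ly86 at 5.49 CPM in AML replicate 3, against 80.1 CPM in the MPP-2 class of the same library. In AML replicate 1 these values were 33.9 CPM, from 22 cells, and 127 CPM.

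To ask whether the response to AML was particular to the MPP-2 class, the AML effect was compared between the 4 classes in 1 model with a term per library. It differed between classes for 227 of 12227 genes (1.86%), with 1373 at an unadjusted p under 0.05 (11.2%). Against the HSC class alone, 0 genes passed, with 799 at an unadjusted p under 0.05 (edgeR, 6.53%). The HSC sum of AML replicate 1 held 22 cells, so that 0 calls do not show that both classes responded alike. Against the MPP-3 class 56 genes passed (0.458%), 7 with a higher AML effect in MPP-2 (0.0573%) and 49 with a lower one (0.401%). Against the MPP-4 class 42 passed (0.344%), 13 higher (0.106%) and 29 lower (0.237%). At an unadjusted p under 0.05 the shares were 9.94% against MPP-3 and 5.99% against MPP-4. Fitted on their own, the HSC class had 15 genes called between AML and PBS (0.143%), the MPP-3 class 10 (0.105%) and the MPP-4 class 6 (0.0491%). With limma-voom and the library as a random effect, 0 genes passed and 810 had an unadjusted p under 0.05. Without PBS replicate 1 there were 78 genes, without AML replicate 1 there were 420 and without AML replicate 3 there were 350.

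Among the 3 genes with the lowest p in the comparison with MPP-3 or in that with MPP-4, 5 had a lower AML effect in MPP-2 and 1, Slpi, a higher one. The effect on Ccnb2, the cyclin B2 gene, was lower than in MPP-3 by 1.23 ± 0.198 (SE, edgeR adjusted p 0.000360), its log2 fold change being -0.59 in MPP-2 and 0.71 in MPP-3. For Birc5, the chromosomal passenger protein survivin, the difference was -1.30 ± 0.213 (SE, edgeR adjusted p 0.000360), and for Cenpw, a centromere protein, -0.88 ± 0.144 (SE, edgeR adjusted p 0.000360). Against MPP-4, the difference was -0.83 ± 0.130 (SE, edgeR adjusted p 0.000373) for Hmgb2, a chromatin protein, and -1.19 ± 0.198 (SE, edgeR adjusted p 0.000680) for Prc1, a protein of the spindle midzone. The share of MPP-3 class cells called G2M was 6.01% and 6.87% in PBS replicates 1 and 3, the PBS libraries of that class in the fit, against 44.3% and 13.9% in AML. For MPP-4 class cells this share was 7.09%, 3.68% and 4.99% in PBS against 39.6% and 9.43% in AML. In cells called S or G2M alone, 85 genes passed, and 63 of them were among the 227.

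The AML effect on Slpi and Tyrobp was higher in MPP-2 than in MPP-4, with no difference called from HSC or MPP-3. For Slpi the AML effect in MPP-2 exceeded that in MPP-4 by 1.38 ± 0.232 (SE, edgeR adjusted p 0.000680), and for Tyrobp by 0.75 ± 0.133 (SE, edgeR adjusted p 0.00169). Igkc, an immunoglobulin light chain gene, differed from MPP-3 by -1.06 ± 0.176 (SE, edgeR adjusted p 0.000376). For Ly86 the 4 classes differed (edgeR adjusted p 0.00399), the log2 fold change being 2.69 in MPP-2, 1.49 in HSC, 4.01 in MPP-3 and 1.74 in MPP-4. No single difference from MPP-2 passed, and that from MPP-3 was -1.23 ± 0.344 (SE, edgeR adjusted p 0.0815). For Irf8 the classes also differed (edgeR adjusted p 0.0331), and MPP-2 differed from MPP-4 by 0.77 ± 0.200 (SE, edgeR adjusted p 0.0653). Its log2 fold change was 2.31 in MPP-2, 0.95 in HSC, 2.01 in MPP-3 and 1.17 in MPP-4. In their own edgeR fits, Ly86 was also called in MPP-3 (adjusted p 6.31e-05) and MPP-4 (adjusted p 0.00679), and Irf8 in MPP-3 (adjusted p 0.0437), so that both genes rose outside the MPP-2 class too.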

How the data were processed

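The authors deposited raw UMI counts per gene and barcode (Cell Ranger 7.0.1, per the file headers; the submitters' processing notes name GRCm38/mm10) and a cell table with, per the file headers, module scores, cell cycle scores and percent of mitochondrial and ribosomal UMIs. That table, made with Seurat 4.3.0 under R 4.2.2 per the notes, also gives class, phase and cluster. Cell filters, doublet treatment and class signature genes are not stated in those sources, and 11 of its columns were not used. No doublet caller was run.

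Counts were summed per library, the replicate, with at least 20 cells per sum, and tested with edgeR 4.0.16 under R 4.3.3 (filterByExpr, TMM, quasi-likelihood F test, Benjamini-Hochberg, threshold 0.05). The labels do not say whether each library is 1 animal, and p-values measure the spread between these libraries. Classes were compared with a library term and class-by-treatment terms; the MPP-3 sum of PBS replicate 2 (15 cells) was left out. Shares were compared with exact permutation tests over 10 splits. Alternatives used limma 3.58.1, DESeq2 1.42.0, other filters, scalings and subsets of cells. The code was tested on simulated data (11604 genes, 10 of 137 calls false).

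Genes were named by rule: the 6 markers, the study's genes, all called genes, the 12 next by p with groups apart, the 2 lowest p and the highest level in each list, the 3 lowest p per class comparison, and the leading 10 genes of the class and 5 of each cluster, of which 1 is not reported here. Mpo and Procr come from the lists and were chosen after their values were seen. The cells, the lists and the rules were chosen with earlier results of these data known. Medians and counts describe lists, without a test.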

Additional observations from a re-analysis of the deposited data

Results flagged for a closer look

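The AML effect differed between the classes in 227 genes over all 4 classes, in 56 genes between MPP-2 and MPP-3 and in 42 genes between MPP-2 and MPP-4, each by its own test in edgeR. The genes with the lowest p over all classes were Slpi (edgeR adjusted p 6.83e-06), Igkc (5.25e-05) and Tyrobp (5.25e-05). Between MPP-2 and MPP-3, the log2 AML effect differed by -1.23 for Ccnb2, -0.88 for Cenpw and -1.30 for Birc5. Between MPP-2 and MPP-4, it differed by -0.83 for Hmgb2, 1.38 for Slpi and -1.19 for Prc1. AML replicate 1 has the highest G2M share in all 4 classes, and without it the count over all classes was 420 genes. That count was 78 without PBS replicate 1, 85 in S and G2M cells and 0 with limma-voom and the library as a random effect (810 at an unadjusted p under 0.05).

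AML replicate 2, of which no barcode is in the cell table, carried both called genes at higher levels than the barcodes of the other libraries outside the table. Over its 17055 barcodes Ly86 measured 497 CPM and Irf8 168 CPM. The barcodes of PBS libraries outside the table held 8.05 to 22.3 CPM of Ly86 and 5.63 to 22.8 CPM of Irf8, and those of AML replicates 1 and 3 held 107 and 67.9 CPM of Ly86 and 54.2 and 39.7 CPM of Irf8. Isg15 did not follow this order, with 117 CPM in AML replicate 2, 114 to 141 CPM in PBS and 284 and 299 CPM in AML replicates 1 and 3. These barcodes carry no class, so the values do not describe MPP-2 cells.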

How the results depend on the processing

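The count of 2 genes called between AML and PBS, both higher, was 6 with DESeq2, 6 with library size scaling alone, 93 with no filter on low counts (76 higher and 17 lower), 7 with cells thinned to 2000 UMIs, 1 without the top 5% of cells by UMIs, 7 with a score margin of 0.05, 5 with MPP-2 cells of all clusters, and 0 in G1 cells (edgeR, 205 at an unadjusted p under 0.05). Among the alternatives added after seeing the data it was 4 in S and G2M cells, 5 in cluster 0, 13 in cluster 1, 0 in cluster 2 (edgeR, 199 at an unadjusted p under 0.05) and 1 with the clusters weighted equally, which also used limma-trend. Leaving out 1 library gave 1 to 265 calls, the highest without AML replicate 3. With the replicate number as a block there were 2 calls, 1 of them shared, in which Irf8 did not pass (edgeR adjusted p 0.167). The numbers name samples only, and deviations of same-numbered libraries correlated at -0.081 and -0.124. The count of 227 genes for the class difference was 0 with limma-voom, 143 with library size scaling, 443 without a filter, 85 in S and G2M cells and 78 to 420 without 1 library. A block could not be added to that fit, since its library term holds the number. The share difference of 8.58 points became -1.99, and the cycling difference of 2.37 points -3.44, without AML replicate 1. Leaving out 1 library gave -1.99 to 19.2 and -3.44 to 8.17 points.

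Ly86 kept its direction in all 20 alternatives and missed the threshold only in cluster 2, and Irf8 kept its direction in all 20. Over 25 named genes and 21 alternatives, 405 of 486 values kept direction and side of the threshold, 50 newly passed, 10 no longer passed and 21 reversed. The reversed values belong to genes that were not called. For Gata2 they were -0.0038 (DESeq2), -0.018 (no filter), -0.11 (replicate block), -0.0019 (top 5% left out), -0.17 (all clusters), -0.043 (without PBS replicate 2), -0.45 (without AML replicate 3, with up to 0.19 when another library was left out), -0.42 (cluster 1) and -0.20 (equal clusters). For Cxcl10 they were -0.15 (block), -1.19 (score margin), -2.04 (without AML replicate 3, with up to 1.04 when another was left out) and -1.11 (cluster 2). For Pf4 they were 0.21 (G1 cells), 0.015 (top 5% left out) and 0.22 (cluster 1). For Itga2b they were 0.82 (G1 cells), 0.029 (without PBS replicate 3), 0.15 (without AML replicate 1, with down to -2.90 when another was left out) and 0.091 (cluster 0). For Nfkb1 it was -0.32 (cluster 2). The cause of these moves was not tested. AML replicate 1, with 718994 UMIs, limits what can be seen of genes at a few CPM.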
